A study of Mus with 4 samples.

Results

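The circRNAs described here held at least 5 back-spliced junction reads in both wild-type libraries and were listed in neither library of the VLDLR deletion, with chromosomes X and Y left out. There were 1165 of them (the members) among 44073 circRNAs in all. They were chosen by their junction reads in all 4 libraries, so that every difference between wild type and deletion in these reads is a description and carries no test. VLDLR is the very-low-density lipoprotein receptor, whose loss is known for abnormal vessel growth in the mouse retina. Ocular tissue came from mouse pups of strain C57BL/6J, either wild type or with the VLDLR deletion. All 4 groups, controls included, had 75% oxygen from postnatal day 7 to day 12, per the labels. Tissue was taken at postnatal day 12 (P12), or at P13 after 1 day in room air, so that age and the return to room air cannot be told apart. Every group was represented by 1 library, made from RNA cleared of ribosomal and linear RNA. How many animals went into a library is not stated in the labels.

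A circRNA is a closed RNA ring, made when a splice donor joins a splice acceptor upstream of it instead of the next one downstream. A read across this back-splice, here called a junction read, comes from such a ring, while a read that crosses either splice position without the back-splice is a non-junction read. Most rings consist of exons of a protein-coding gene, called the host, and 1 host can give many rings by pairing the same splice positions in different ways. Neural tissue, retina included, is known to be rich in circRNAs. In bulk tissue, fewer cells of a type and less RNA per cell cannot be told apart.

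The libraries differed in depth and in sequencing run along with genotype. Below, 4 values in a row always stand in library order: first wild type at P12 and at P13, then the deletion at P12 and at P13. Junction reads numbered 662811, 759063, 299723 and 341873 in library order. The fewest reads of a listed circRNA were 2 in each table, so that a circRNA absent from a table may still have had 1 read, or more where the caller dropped it. Read identifiers placed both wild-type libraries on 1 instrument run (lanes 2 and 3) and both deletion libraries on another (lane 6). The genotypes shared 0 runs, and in anything that follows genotype and run cannot be told apart. Each table listed 0 circRNAs of Vldlr, so that the targeted gene gave no check of the labels.

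Of 13046 autosomal circRNAs with at least 5 reads in both wild-type libraries, the members made up 8.93%. Another 2417 were listed in 1 deletion library and 9464 in both. In the opposite direction, 62 of 7428 autosomal circRNAs with at least 5 reads in both deletion libraries were unlisted in both wild-type libraries. The counts of the opposite directions are not alike. The deletion libraries held fewer junction reads, so that 5 reads there are a stricter minimum, set against tables with more reads. The read rule also met 30 circRNAs of chromosomes X and Y, which are left out of all counts below.

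Most members were sparse. Their junction reads ran from 5 to 202 in wild type P12 and from 5 to 227 in wild type P13, with a median of 7 in both. Summed over both libraries they held 10 to 429 reads, with a median of 15 and quartiles of 13 and 19. All members together took 1.56% of the junction reads of wild type P12 and 1.42% of those of wild type P13. Only 149 had at least 10 reads in both libraries, 23 had at least 20, 11 had at least 30, and 1 had at least 100. At the edge of the rule, 421 members had exactly 5 reads in the lower wild-type library, which was 26.9% of the 1563 autosomal circRNAs at that level. Just outside, at exactly 4 reads in the lower library, 744 of 1985 (37.5%) were unlisted in both deletion libraries.

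The share of circRNAs unlisted in the deletion fell steeply with their wild-type reads. At 10 to 14 summed reads 507 of 1690 were unlisted (95% exact binomial interval 27.8% to 32.25%), and the share was 18.7% (367 of 1967) at 15 to 19. At 20 to 29 reads it was 8.62% (226 of 2623), at 30 to 49 it was 1.94% (46 of 2367), and at 50 to 99 it was 0.655% (14 of 2139). At 100 reads or more it was 0.221% (5 of 2260, interval 0.0719% to 0.516%). Without molecular identifiers on the reads, these intervals cover counting error alone.

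**Figure D1:**
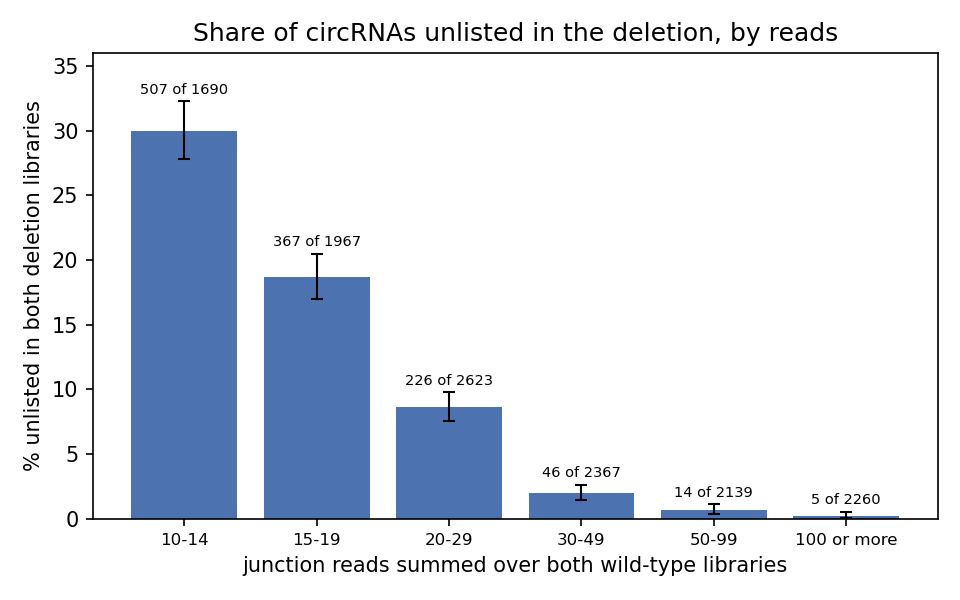
Percent of autosomal circRNAs unlisted in both deletion libraries (y axis, linear from 0) in 6 ranges of junction reads summed over both wild-type libraries (x axis), among circRNAs with at least 5 reads in both. Bars give the share, whiskers the 95% exact binomial interval and labels the counts; 507 of 1690 were unlisted at 10 to 14 reads and 0.221% at 100 reads or more.

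Scaling by effective library size (reads multiplied by the trimmed-mean, TMM, factor) gives what these reads would come to at the deletion libraries' depth. The effective sizes of the deletion libraries were 0.452 (P12) and 0.449 (P13) of those of the wild-type libraries. On this scale the median member came to 3.17 reads in deletion P12 and 3.14 in deletion P13. Members that reached 3 scaled reads on both days numbered 488 (4.74% of the 10301 circRNAs that did), and those that reached 5 numbered 89 (1.29% of 6884). At 10 scaled reads there were 19 members among 4085 circRNAs, and at 20 there were 3 among 2204. Divided by 3 reads, the scaled value of a member gives a ratio of wild type to that floor, and 53 members had a ratio of at least 2 on both days. Such a ratio is a lower bound of the fold only where the caller dropped no ring from the table, which the tables cannot tell.

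The authors' own scale, SRPBM, gives another depth. 1 unit of SRPBM stood for 9.14, 9.10, 10.6 and 12.1 junction reads in library order. By these constants the median member would come to 8.13 reads in deletion P12 and 9.28 in deletion P13. Which depth the constants stand for was not given in the sources used here.

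The member with the most reads joined positions 84171082 and 84186081 of chromosome 15 on the plus strand, in the coordinates of the deposited tables. Their genome build was not given in the sources used here. It was classed as intergenic and held 202 reads in wild type P12 and 227 in wild type P13, against none listed in either deletion library. At the depth of the deletion libraries this would come to 91.4 and 102 reads, which are 30.5 and 34.0 times the floor of 3 reads. Its junction ratio, the fraction of reads at its splice positions that cross the back-splice, was 0.908 and 0.904. Its start is also the start of exon-class rings of Pnpla3, a lipid hydrolase gene. The Pnpla3 ring ending at 84181052 was listed in all 4 libraries, with 9, 27, 13 and 10 reads in library order. The Pnpla3 ring ending at 84174477 held 13, 23, 9 and 13 reads in the same order. The shared start was therefore in use in both genotypes, and the pairing with 84186081 was listed in wild type alone.

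Wdr78, which encodes a protein of the ciliary dynein arm pathway, hosted the member second in reads (chromosome 4, 103095329 to 103096775, exon class), with 97 reads at P12 and 142 at P13. These came to 43.9 and 63.7 reads at the deletion depths, 14.6 and 21.2 times the floor. Other rings of Wdr78 were well covered in the deletion: the 15 listed in both genotypes summed to 495, 705, 551 and 670 reads in library order. The unlisted ring was thus 1 product of a host whose other rings held about as many reads in the deletion as in wild type. The deletion libraries held fewer junction reads in all.

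Slc17a5 encodes sialin, the exporter of sialic acid from lysosomes, and hosted 4 members, 2 of them among the 20 with the most reads. The ring from 78557457 to 78560806 on chromosome 9 held 42 reads at P12 and 77 at P13. The ring from 78540899 to 78560806 held 28 and 35, and that from 78552934 to 78560806 held 15 and 7, so that 3 members share the end at 78560806. The remaining member ran from 78571022 to 78578707 and held 8 and 7. All other rings of Slc17a5 together held 10, 11, 8 and 0 reads in library order, too few to be tested.

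Other members with many reads came from hosts of varied function. A ring of Pcnx, the mouse counterpart of the fly gene pecanex (chromosome 12, 81917665 to 81919380), held 147 reads at P12 and 35 at P13. A ring of Prkd3, a protein kinase D gene (chromosome 17, 79012624 to 79013541), held 63 and 49. A ring of Zfp280d, a zinc finger gene (chromosome 9, 72307951 to 72312760), held 38 and 60. The wild-type values of these 3 lay above 3 reads at the deletion depths on both days, with the lowest ratio to the floor, 5.24, for Pcnx at P13.

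Txndc11, a thioredoxin-domain gene of the endoplasmic reticulum, hosted a ring with 40 and 47 reads (chromosome 16, 11091586 to 11128703). Another Txndc11 ring with this end (start 11104566) held 74, 98, 0 and 26 reads in library order, so that a ring with many reads elsewhere was unlisted in deletion P12. Eml5, of a family of microtubule-associated proteins, hosted a ring with 50 and 36 (chromosome 12, 98858719 to 98873205). Camsap1, which binds microtubule minus ends, hosted a ring with 44 and 34 (chromosome 2, 25944942 to 25966948). Mfng, a glycosyltransferase that modifies Notch receptors, hosted a ring with 48 and 27 (chromosome 15, 78764315 to 78767190). Ratios of these 4 to the floor ranged from 4.04 (Mfng at P13) to 7.54 (Eml5 at P12), and each came from a ring that held more than 20 reads in both wild-type libraries.

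The rest of the 20 with the most reads included rings of genes for chromatin enzymes. Kmt2a, a histone H3 lysine 4 methyltransferase, hosted a member with 26 and 29 reads, and Ash2l, a subunit of such complexes, hosted one with 29 and 25. Crebbp, a histone acetyltransferase gene, hosted one with 26 and 23. Of the others, Zdhhc20, a palmitoyltransferase gene, had 30 and 43 reads, and Epb41l2, of the protein 4.1 family of the membrane skeleton, had 28 and 41. Ubr2, a ubiquitin ligase gene, had 24 and 43, Lrrc27 had 32 and 35, and Alg9, a mannosyltransferase of N-glycan synthesis, had 27 and 31. Tmcc1, which encodes a protein of the endoplasmic reticulum membrane, had 17 at P12 and 34 at P13. At P12 the Tmcc1 ring came to 7.69 reads at the depth of the deletion library, the lowest scaled value among the 20.

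**Figure D2:**
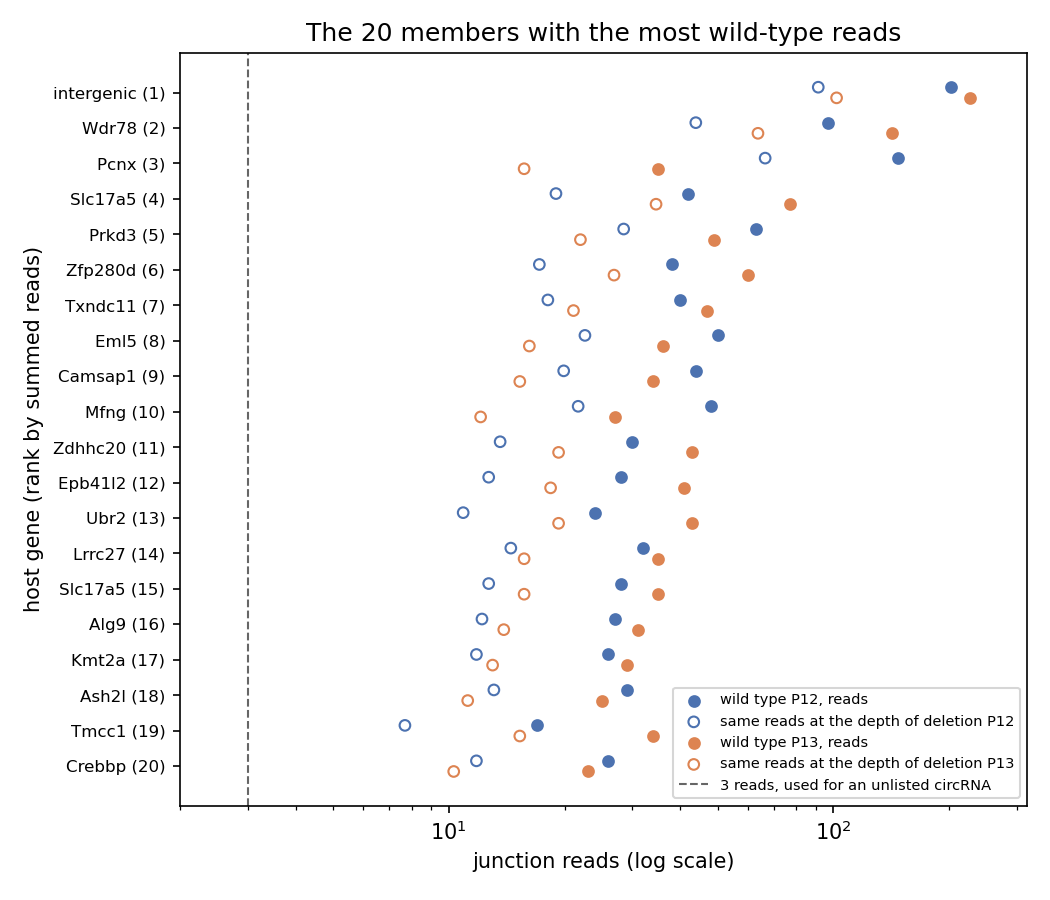
Junction reads (x axis, log scale) of the 20 members with the most summed wild-type reads, by host gene and rank (y axis). Filled points are the reads in wild type P12 (blue) and P13 (orange), open points the same reads scaled to the deletion library of that day, and the dashed line marks 3 reads; the lowest open point is Tmcc1 at P12 with 7.69.

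Most members used splice positions that were also in use in the deletion. For 845 (72.5%) the start or the end was a start or end of another circRNA listed in a deletion library, and for 315 (27.0%) both were, in different rings. Among the other circRNAs with at least 5 reads in both wild-type libraries these shares were 81.9% and 39.6%. For 320 members (27.5%) neither position was a start or end of another circRNA listed in a deletion library, against 18.1% of the others. Such a position may still have been in use, in unlisted rings or in linear RNA. At 10 to 14 summed reads the share with at least 1 position so listed was 73.4% of members and 76.7% of others. At 20 to 29 reads it was 70.8% and 80.1%. These shares depend on the deletion tables that the rule used, so that they describe the members and test nothing.

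Members also shared positions among themselves: 145 (12.4%) had their start or end in common with another member. In 8 cases a deletion library listed a ring with both ends within 10 bases of a member's. The Ehmt1 member (chromosome 2, 24884146 to 24887066) held 26 and 8 reads, and a ring with its end 3 bases further held 124, 106, 52 and 30 in library order. The Anks1b member (chromosome 10, 90069472 to 90077142) held 16 and 5, and a ring starting 4 bases earlier held 1398, 1458, 204 and 254. Counting such rings as the same circRNA would leave 1157 members.

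Of the members, 1110 had a single host, from 905 genes, 53 had no host and 2 had more than 1. There were 746 hosts with 1 member, 124 with 2, 27 with 3, 5 with 4 and 3 with 5. Members were mostly minor products: the median member held 8.42% of its host's wild-type junction reads, against 13.97% for the other circRNAs with at least 5 reads in both. A member was the ring with the most wild-type reads of its host in 228 of 1110 cases (20.5%), against 32.9% of the others. Both measures use the wild-type junction reads that the rule used, and the share of circRNAs unlisted in the deletion fell with these reads. They were not compared at equal reads, so that they describe the members and test nothing.

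Snx13 and Eml5 were among the hosts with 5 members. Snx13, a sorting nexin gene, gave rings from 1 shared start at 35078900 on chromosome 12 to 4 different ends. The ring ending at 35098313 held 19 and 28 reads, that ending at 35107556 held 14 and 11, that ending at 35103140 held 9 and 6, and that ending at 35101109 held 6 and 7. The same start was listed in the deletion with the end 35086984, at 169, 209, 51 and 77 reads in library order. Other rings from this start were listed in the deletion too. That ending at 35112504 held 43, 71, 31 and 46, that ending at 35092913 held 19, 32, 17 and 14, and that ending at 35091670 held 4, 6, 0 and 5. The members from this start thus had fewer wild-type reads than some of these rings and more than the last.

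Of the hosts with 4 members, Vps13b, a lipid transfer gene, had its highest member at 20 and 20 reads. Rgs22, a regulator of G-protein signalling, had between 6 and 9 reads in each of its members and libraries. Mtr, which encodes methionine synthase, had 12 and 9 in its highest member, and Tbc1d14, a gene of a Rab regulator in autophagy, had 10 and 8.

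For 103 of the 905 hosts (11.4%) no ring at all was listed in the deletion, and 54 of these had 1 listed ring, the member itself. They were 2.56% of the 4019 hosts with an autosomal circRNA of at least 5 reads in both wild-type libraries, and the rule makes each such host a member host. Mfng was among them, with 50 and 27 reads over its 2 listed rings. Pgm3, of amino sugar synthesis, and Nme6, a nucleoside diphosphate kinase gene, were named after their values were seen. The only listed ring of Pgm3 held 25 and 16 reads, and that of Nme6 held 11 and 30. Tie1, an endothelial receptor gene, had 1 listed ring, with 9 and 5 reads. Ppara, a nuclear receptor that controls fatty acid oxidation, had 14 and 22 over its rings in wild type and 0 in both deletion libraries.

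Lists of host genes were used to describe which functions the members touched, beside the 8.93% over all 13046 circRNAs. The lists count only circRNAs with a single host, while the 8.93% also covers those with none or several. The host of a ring shows which gene gave it, not the level of that gene, and no cell type is named from it. Photoreceptor genes hosted 21 members of 227 circRNAs (9.25%), all with between 10 and 28 summed reads. The highest were in Ttc8, a gene of the BBSome (12 and 16 reads), and Tulp1, needed for photoreceptor protein transport (14 and 8). Genes of inner retinal neurons hosted 0 members of 24 circRNAs, glial genes 0 of 1, and genes of pigment epithelium, cornea and stroma 0 of 6. Those lists held 10, 1 and 5 hosts with a circRNA at this level, so that few members could be seen.

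Lens genes hosted 3 members of 18 circRNAs. Bfsp1, the lens fibre protein filensin, had 6 and 11 reads, Cryga, a gamma-crystallin, had 7 and 7, and Bfsp2, the partner of filensin (named after its values were seen), had 5 and 8. Beside its junction reads the Cryga ring had 11379 and 14530 non-junction reads, a junction ratio of 0.001 on both days. Gamma-crystallin genes are close copies of each other, so that the host of the Cryga ring, and the ring itself, are uncertain. Vessel genes hosted 2 of 9, Tie1 (9 and 5) and the semaphorin receptor gene Plxna2 (5 and 5). Genes of striated muscle, which can come with ocular tissue, hosted 5 of 57. These were 2 rings of Svil (24 and 21 in the higher) and 1 each of Fhod3 (7 and 6), Ryr2 (6 and 6) and Ckm (7 and 5), the last 2 named after their values were seen.

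Functional lists mostly lay near the share over all circRNAs. Cilium genes hosted 18 of 249 (7.23%), led by Wdr78 and by Ttbk2, a kinase that starts cilium assembly (15 and 20 reads). Synapse genes hosted 23 of 316 (7.28%), with Unc13b (11 and 16) and Unc13c (17 and 7), both of vesicle priming, the highest. Chromatin genes hosted 51 of 565 (9.03%), cytoskeletal motor genes and their partners 19 of 198 (9.60%), ubiquitin genes 37 of 507 (7.30%) and membrane trafficking genes 59 of 588 (10.03%). Genes of DNA repair and the cell cycle hosted 29 of 248 (11.7%), among them Cdc14b (5 and 21) and Atr (11 and 13).

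Shares were low for hosts of widely studied circRNAs, with 12 members of 404 (2.97%), and for genes of RNA binding and splicing, with 13 of 354 (3.67%). The circRNAs of those lists had median summed wild-type reads of 52 and 34. The median was 35 for chromatin and for synapse genes, 39 for cilium genes and 48 for Zfp genes. Their shares were 9.03%, 7.28%, 7.23% and 10.2% in that order. Among hosts of widely studied circRNAs, Camsap1 and Anks1b held the highest members. Among genes of RNA binding and splicing, Cnot6l (14 and 14) and Ddx42 (7 and 16) did. The share was 13.4% (11 of 82) for hypoxia and Foxo genes, led by the Crebbp ring and by Hk1, a hexokinase gene (5 and 23). It was 10.5% for Wnt and Norrin pathway genes (13 of 124, with Nfatc3 at 9 and 12). Genes of lipoprotein and lipid handling, the pathway of VLDLR itself, hosted 14 of 133 (10.5%). Ppara (11 and 10) and Sorl1, a receptor of the same family as VLDLR (8 and 13), held the highest of these. Zinc finger genes with the prefix Zfp hosted 17 of 166 and solute carrier genes 14 of 117. These are counts over lists that differ in depth, and no list was tested.

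The comparison of P13 with P12 within wild type uses the wild-type reads that the rule used, since each member needed 5 in both. It is therefore a description and not independent of the rule. For each circRNA with at least 20 reads over both wild-type libraries, the ratio of TMM-scaled reads was taken with an exact conditional 95% interval. A call needed a ratio of 2 or more, or 0.5 or less, and an interval that left out 1. With 1 library per day this compares 2 libraries, has no replicate check and gives no p-value. Of the 291 members that could be tested, 7 were higher at P13 (2.41%, against 3.50% of all 9389 tested) and 16 were lower (5.50%, against 4.03%). At 20 to 29 summed reads, 1.77% of 226 members were higher and 4.42% lower, against 3.63% and 5.26% of 2397 others. At 30 to 49 reads, 6.52% of 46 members were higher and 8.70% lower, against 7.11% and 6.33% of 2321 others. At 50 reads or more, 0 of 19 members were higher and 2 lower, against 70 and 89 of 4380 others. The members' median log2 ratio was 0.01, and it was 0.01 over all tested.

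The Pcnx member stood farthest from equal among the members called, with 147 reads at P12 and 35 at P13, a ratio of 0.210 (interval 0.141 to 0.305). Another Pcnx ring with the same end (start 81912665) held 49 and 13 in wild type, while a further ring with that end (start 81894983) held 50 and 55. An intergenic member on chromosome 19 (8478954 to 8491296) held 29 and 7, the Ehmt1 member 26 and 8, and a member of Tiam1, a regulator of Rac, 17 and 5. In the other direction, the Hk1 member had 5 reads at P12 and 23 at P13 (ratio 4.06, interval 1.51 to 13.7) and the Cdc14b member had 5 and 21 (ratio 3.71, interval 1.36 to 12.6). The last 3 of these called members had 5 reads on 1 day, the least the rule allows.

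**Figure D3:**
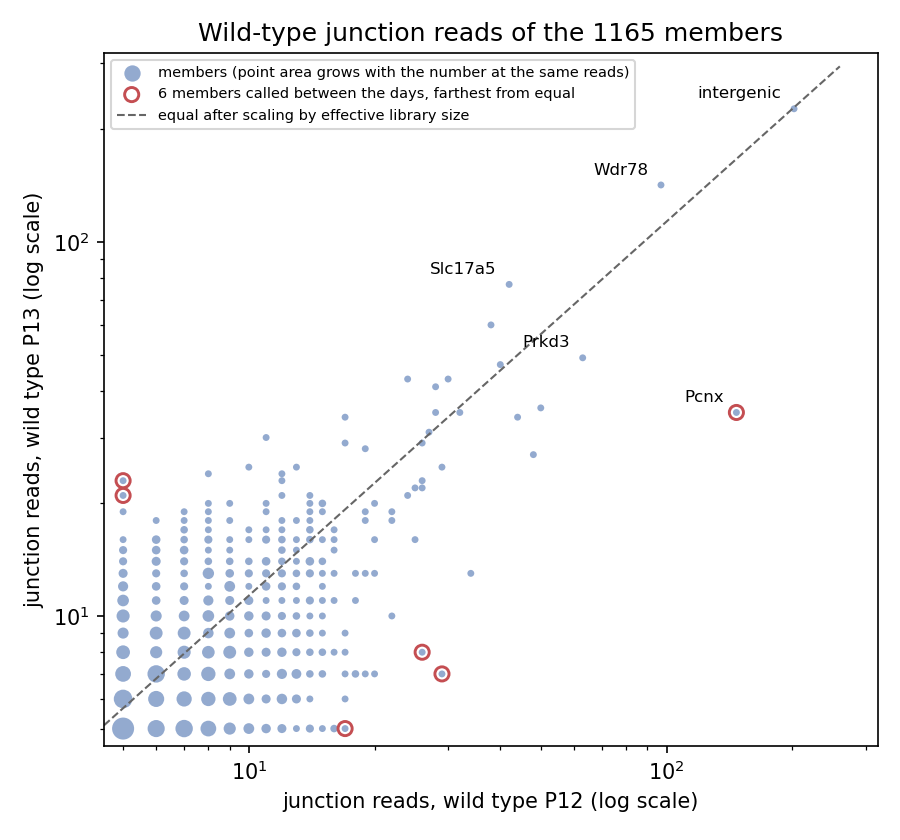
Junction reads in wild type P12 (x axis, log scale) and wild type P13 (y axis, log scale) of all 1165 members, with point area growing with the number of members at the same reads. Red rings mark the 6 called members farthest from equal, and the dashed line is equality after scaling; the intergenic member (202 and 227) lies near the line and Pcnx (147 and 35) far below it.

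The class, span and chromosome of a ring did not enter the rule, apart from the sex chromosomes. Exonic rings made up 89.5% of members (1043, 95% exact binomial interval 87.6% to 91.2%) and 90.95% of the other circRNAs with at least 5 reads in both (interval 90.4% to 91.5%). Intronic rings made up 5.92% and 4.93%, and intergenic ones 4.55% and 4.12%. The median distance between start and end was 11460 bases in members and 10598 in others, with quartiles of 4400 and 26522 against 4162 and 23560. By chromosome, the share of members ran from 6.58% on chromosome 3 (39 of 593) to 11.6% on chromosome 9 (102 of 878, interval 9.57% to 13.9%).

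The junction ratio sets rings against other RNA left in the libraries at the same positions, after linear RNA was cleared. It does not give the level of rings against linear RNA in the tissue, and other rings over the same positions can add non-junction reads. It is computed from the junction reads that the rule used and from non-junction reads that it did not, so that its values are a description. Its median in members was 0.167 in wild type P12 and 0.165 in wild type P13, against 0.299 and 0.308 in the others. This difference went with the reads: at 10 to 14 summed reads the medians at P12 were 0.132 in members and 0.136 in others, and at 20 to 29 reads 0.219 and 0.217. At P13 they were 0.118 and 0.130, then 0.221 and 0.225. Among the 23 members with at least 20 reads in both libraries the median was 0.515 at P12 and 0.470 at P13, against 0.504 and 0.518 in 4572 others. The Epb41l2 member, at 0.079 on both days, lay far below, with 651 and 951 non-junction reads beside its 28 and 41 junction reads.

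**Figure D4:**
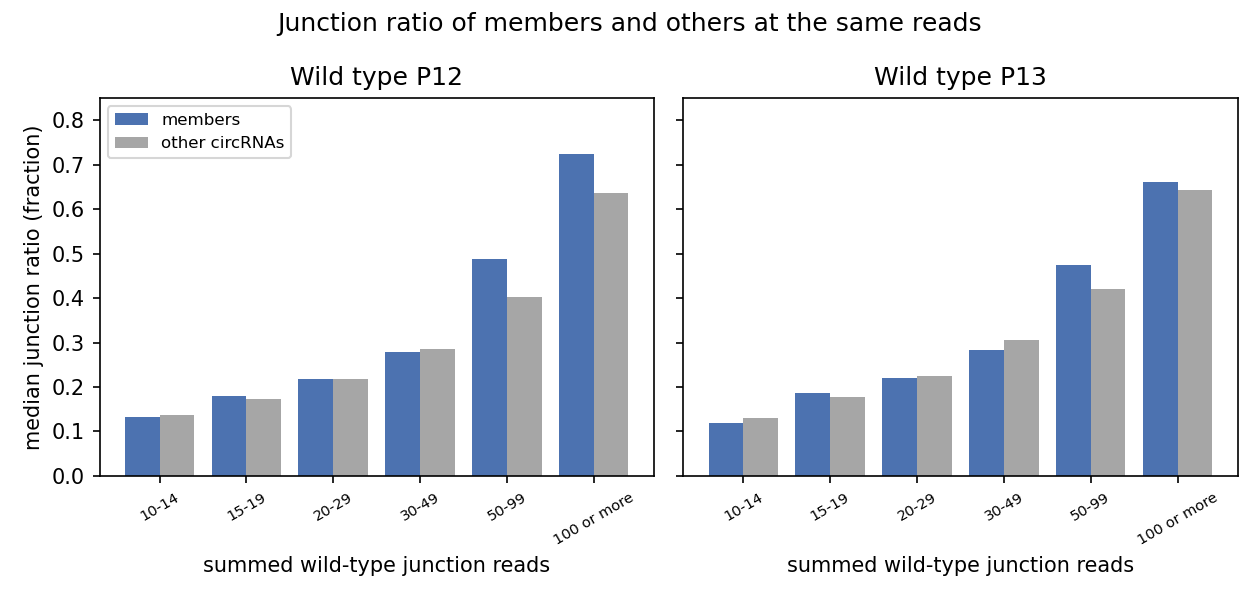
Median junction ratio (y axis, fraction from 0) of members (blue) and of the other circRNAs with at least 5 reads in both wild-type libraries (grey), in 6 ranges of summed wild-type reads (x axis), for wild type P12 and P13. Both rise with the reads, from 0.132 and 0.136 at 10 to 14 reads at P12 to 0.724 and 0.636 at 100 reads or more, a range that holds 5 members.

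The members' reads were spread over both lanes of the wild-type run. Both lanes of both libraries held reads of 1088 members (93.4%). Per library, both lanes held reads of 96.05% of members and 99.02% of others in wild type P12, and of 97.17% and 99.28% in wild type P13. Counting neighbouring reads on a tile (within 2500 units of the read identifiers) once left 93.7% of the members' reads in wild type P12 and 94.5% in wild type P13, against 92.0% of the others' in both. After this, 1040 members still had at least 5 reads in both libraries.

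CircRNAs that share a splice position with a member, and are listed in both genotypes, were tested for the genotype, since their reads did not choose the members. Of 1890 such rings, 951 had at least 10 reads in at least 2 libraries. They were tested with edgeR's quasi-likelihood method, with day as a term and p-values adjusted by Benjamini-Hochberg over 8785 circRNAs. At an adjusted p under 0.05, 32 of the 951 were higher in the deletion (3.37%) and 70 lower (7.36%). Over all 8785 the shares were 5.03% higher and 3.59% lower, and over the 8624 of them listed in both genotypes they were 5.06% and 3.29%. At an unadjusted p under 0.05 by the same test, 67 of the 951 were higher and 148 lower, against 977 and 834 of all 8785. The median log2 difference was -0.24 among the 951, against -0.06 among the 8624. The lower calls thus took a larger share beside members than over all, and the higher calls a smaller one, with no test of that difference.

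Examples were found in both directions. The Tmcc1 ring that shares the member's start (chromosome 6, 116042871 to 116043805) held 312, 368, 25 and 35 reads in library order. Its log2 difference was -2.36 (standard error 0.213, adjusted p = 1.20e-06 by edgeR's quasi-likelihood test). The Pcnx ring that shares the member's end (start 81894983) held 50, 55, 4 and 7, with a log2 difference of -2.10 (adjusted p = 0.0100 by the same edgeR test). An Epb41l2 ring with the member's start (chromosome 10, 25460792 to 25471637) held 39, 57, 3 and 7 (log2 difference -2.12, adjusted p = 0.0125 by edgeR). All 3 were lower in both deletion libraries than in both wild-type ones by more than the depth. DESeq2 gave an adjusted p of 2.25e-10 for the Tmcc1 ring and none for the Pcnx and Epb41l2 rings.

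The only other listed ring of Lrrc27 shares the member's start (chromosome 7, 139221394 to 139236988) and went the other way, with 7, 9, 24 and 28 reads. Its log2 difference was 2.83 (standard error 0.479, adjusted p = 9.57e-04 by edgeR), and DESeq2 gave no adjusted p for it. For Lrrc27 the ring ending at 139230296 was thus listed in wild type alone, with 32 and 35 reads. The ring ending at 139236988 held more reads in the deletion libraries, although these held fewer junction reads in all. On the SRPBM scale the log2 difference of that ring was 1.38 (adjusted p = 0.0467 by edgeR). For Camsap1 the ring that shares the member's end (start 25965663) held 2343, 2933, 1017 and 1151 reads, a log2 difference of -0.13 (adjusted p = 0.565 by edgeR).

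These counts moved with the libraries and the scale. Lower calls among the position-sharing rings numbered 135 of 935 without deletion P13 (14.4%, against 10.6% of all tested), 37 of 641 without wild type P12 (5.77% against 2.51%) and 38 of 638 without wild type P13 (5.96% against 2.86%). On the SRPBM scale 3 were higher and 588 lower of 951 (61.8% lower, against 54.3% of all tested), since that scale moved the median log2 difference of all 8785 circRNAs from -0.08 to -1.54. DESeq2 called 15 higher and 38 lower of 951 (1.577% and 3.996%, against 2.311% and 1.411% of all 8785 tested).

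The hosts' other rings were summed per gene over the circRNAs listed in both genotypes, which holds no member, and tested in the same way. Leaving out members takes reads from the wild-type libraries alone. The sums of member hosts therefore stand higher in the deletion than sums with the members would. Other rings listed in wild type or the deletion alone were left out too, for all hosts. The calls and medians of member hosts carry this shift and are not free of the rule. Of 687 member hosts tested, 62 were higher in the deletion (9.02%, against 8.39% of 3562 hosts) and 55 lower (8.01%, against 5.67%). The median log2 difference was -0.01 among member hosts and 0.04 over all. At an unadjusted p under 0.05 by the same test, 101 of the 687 were higher and 91 lower, against 484 and 342 of all 3562. The other rings of most member hosts thus did not pass the test in either direction.

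The 6 member hosts with the smallest adjusted p were Bfsp1, Neurl1a, Ptpn21, Wdr78, Kdm4b and Scmh1. The summed other rings of Bfsp1 rose, with 310, 325, 656 and 564 reads in library order (log2 difference 2.09, standard error 0.123, adjusted p = 1.95e-59 by edgeR's quasi-likelihood test). Of these, 1 ring (chromosome 2, 143841674 to 143849023) held 43, 57, 518 and 411, while the remaining 4 summed to 267, 268, 138 and 153. The rise of Bfsp1 thus rests on 1 ring. The summed other rings of Wdr78 also rose (log2 difference 1.19, standard error 0.114, adjusted p = 1.93e-22 by edgeR), but on the SRPBM scale their difference was -0.27 (adjusted p = 0.126). The sums of 4 hosts fell: Neurl1a, a ubiquitin ligase gene (-2.55 on the log2 scale), Ptpn21, a tyrosine phosphatase gene (-1.88), Kdm4b, a histone demethylase gene (-1.50), and Scmh1, a Polycomb gene (-1.61). The adjusted p of these 4 was at most 3.56e-18 by edgeR. Neurl1a had only 1 other ring, with 421, 346, 34 and 25 reads. For Kdm4b, 1 ring (chromosome 17, 56351633 to 56356056) held 628, 544, 73 and 75, and the remaining 3 summed to 74, 79, 33 and 30. For Ptpn21 the other rings summed to 598, 602, 65 and 82 reads beside 3 members, so that here the members' absence from the deletion went along with low reads of the host's rings.

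Among the hosts with the most members, the summed other rings of Eml5 rose (log2 difference 0.73, adjusted p = 5.35e-05 by edgeR), and on the SRPBM scale they fell by 0.73. This sum left out the 5 members of Eml5, which held 152 reads over both wild-type libraries. It also left out rings listed in wild type or the deletion alone. All Eml5 rings other than members held 335, 375, 233 and 228 reads in library order, and how far the rise rests on the rings left out was not tested. The summed other rings of Tbc1d14 (-0.51), Rgs22 (-0.42) and Vps13b (-0.40) fell, with adjusted p of 8.47e-06, 0.00284 and 0.0142 by edgeR. DESeq2 kept the call of Tbc1d14 (adjusted p = 7.56e-04) and ended those of Eml5 (0.0528), Rgs22 (0.120) and Vps13b (0.256). Mtr (-0.78, adjusted p = 0.120) and Snx13 (-0.22, adjusted p = 0.453) did not pass edgeR's test. For Tbc1d14, 1 ring held 1594, 1539, 384 and 409 reads in library order. The remaining 20 rings summed to 900, 1122, 433 and 402. For Eml5, 1 ring held 162, 155, 161 and 134, and the remaining 11 summed to 130, 145, 70 and 78. By edgeR, the sums of these hosts without their members thus lay on both sides. Those of Tbc1d14 and Eml5 rested largely on 1 ring each.

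The host counts were lower without either wild-type library and with DESeq2, as were those over all hosts. Without wild type P12, 34 member hosts were higher and 30 lower (5.30% and 4.67%, against 4.71% and 2.99% of all hosts tested). Without wild type P13, 33 were higher and 32 lower (5.17% and 5.02%, against 4.91% and 3.40%). DESeq2 called 16 and 15 (2.33% and 2.18%, against 1.74% and 1.35%). On the SRPBM scale 2 were higher and 577 lower of 687 (84.0% lower, against 71.0%), with the median log2 difference of all hosts at -1.42.

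**Figure D5:**
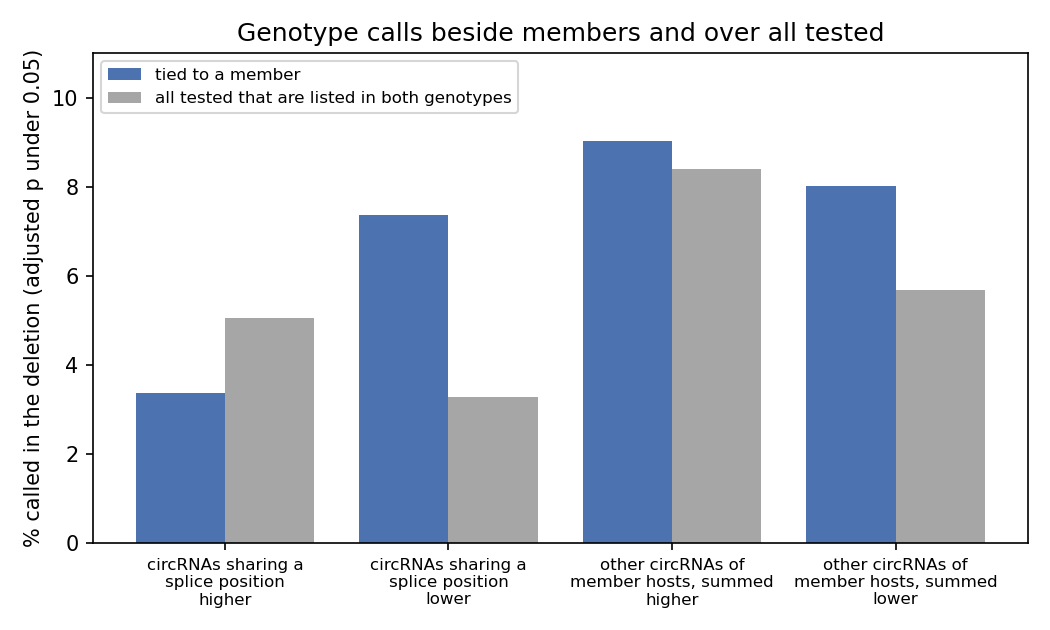
Percent of features called higher or lower in the deletion by edgeR's quasi-likelihood test at an adjusted p under 0.05 (y axis, linear from 0), for circRNAs sharing a splice position with a member and for the summed other circRNAs of member hosts (blue), beside all tested features listed in both genotypes (grey). Lower calls made up 7.36% against 3.29% for the position-sharing circRNAs and 8.01% against 5.67% for the hosts. The host sums leave out the members' wild-type reads.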

How the data were processed

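The members and the gene lists were chosen with earlier results of these data known. The deposited tables give, per library and circRNA, counts of junction and non-junction reads with the columns that the caller CIRI writes, per the file headers. The junction ratio deposited beside them is a fraction, recomputed as 2 times the junction reads over that number plus the non-junction reads. SRPBM, also deposited, is a signal that the authors made by dividing junction reads by 1 constant per library. The submitters' processing notes name BWA and DESeq2 without versions. Genome build, annotation and caller version were not given in the sources used here. Of 7146 host identifiers, 99.9% matched RefSeq genes (assembly GRCm38.p6), used for names only.

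circRNAs were matched between tables by start and end. Scaling used edgeR 4.0.16 (TMM over 8785 circRNAs, each with 10 reads or more in at least 2 libraries). Host sums and single circRNAs were tested with edgeR's quasi-likelihood test (robust, genotype and day as terms) and Benjamini-Hochberg adjustment over all features tested, tested on simulated data first. The standard error is the log2 difference divided by the square root of F. With 4 libraries and 1 residual degree of freedom the spread is mostly borrowed from other features, and p-values measure only the spread between these libraries. DESeq2 1.42.0, other scalings, filters, read minimums and left-out libraries were alternatives.

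The text names the 20 members with the most reads, the up to 8 hosts with most members, the 2 highest members per list, up to 6 members called between days and the 6 member hosts with the smallest adjusted p. One host that this rule names is not reported here.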

Additional observations from a re-analysis of the deposited data

How the results depend on the processing

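Of 51 alternative values, 30 stayed within 1.5 times the main one. The number of members, 1165, depended on the read minimum: it was 4325 at 2 reads, 149 at 10, 23 at 20, and 89 at 5 reads after scaling to the deletion depth. Position matching within 10 bases gave 1157, and counting neighbouring reads on a tile once (chosen after seeing the data) gave 1040. Member hosts called higher (62) and lower (55) were 16 and 15 by DESeq2 and 2 and 577 on the SRPBM scale. Position-sharing circRNAs called higher (32) and lower (70) were 15 and 38 by DESeq2 and 3 and 588 on the SRPBM scale; DESeq2 size factors within edgeR, also chosen after seeing the data, gave 32 and 71. Leaving out 1 library at a time gave 33 to 46 hosts higher, 30 to 54 hosts lower, 22 to 34 position-sharing circRNAs higher and 37 to 135 lower; the cause was not tested. With 3 libraries, the genotype held by 1 library is assumed to vary like the other. The median junction ratio of members was 0.515 at P12 and 0.47 at P13 with at least 20 reads in both libraries. The counts called between the days in wild type stayed within 1.5 times under every scaling, read minimum and fold tried. The labels give no replicate numbers, and the main fit already blocks by day. The median member came to 3.17 and 3.14 reads at the deletion depth by TMM and to 8.13 and 9.28 by the SRPBM constants.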

Other observations

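Beside a Spopl member (chromosome 2, 23537328 to 23563055, intron class; 20 reads in wild type P12 and 13 in wild type P13), another Spopl ring with the same start (end 23545579) held 554 reads in wild type P12 and was unlisted in the other 3 libraries. It was named after its values were seen.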
